A study of Homo sapiens and Mus musculus with 7 samples.

Results

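The genes described here are 9 members of the AP-1, immediate-early and MYC families, namely JUN, JUNB, JUND, FOS, EGR1, IER2, MYC, MYCN and MAX, chosen by symbol from the RNA-seq table of HEL cells. All 9 were found among 14903 genes, on 14 of 24408 transcripts, 6 of them from MAX. HEL is a human erythroleukaemia cell line. KAP1, encoded by TRIM28, is a corepressor that KRAB zinc finger proteins bring to DNA, and the series title ties it to microRNAs, mitophagy and red cell formation. The libraries were from KAP1 knockdown (KD) cells with hemin, control cells with hemin, knockdown cells without hemin and control cells without hemin. Hemin, the oxidised form of haem, was given at 50 µM for 5 days and pushes these cells towards red cell features. Each group was 1 library (250 ng of total RNA went into each), and thus no difference below has a replicate check. Controls are headed Ctrl in the table and were taken as the samples labelled KAP1 WT, the only other genotype among the HEL samples. The sources used here do not say how the knockdown was made.

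AP-1 is a dimer of leucine zipper proteins. JUN, JUNB and JUND can pair with each other or with FOS, and the pairs differ in how strongly they activate genes. Transcription of FOS, EGR1, IER2 and JUN is switched on within minutes of a growth or stress signal and is usually short-lived, in part through serum response factor, SRF, which binds the CArG box. MYC and MYCN are related helix-loop-helix proteins that bind E-box DNA as dimers with MAX, and MYC is known to fall as red cell precursors mature. MAX also pairs with MXD and MXI1 proteins, which oppose MYC.

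The 250 bases before the start of JUN, MYCN, EGR1 and IER2 are shown, with the motifs found in them, because these are the genes that passed a test below for the knockdown or for hemin. The sequences are from RefSeq on GRCh38.p14, and 8 of the 9 genes had an entry. They lie at chr1:58784048-58784297 on the minus strand for JUN, at chr2:15940300-15940549 on the plus strand for MYCN, at chr5:138465229-138465478 on the plus strand for EGR1 and at chr19:13150161-13150410 on the plus strand for IER2. Capitals mark every match, on either strand, to the motifs searched.
JUN: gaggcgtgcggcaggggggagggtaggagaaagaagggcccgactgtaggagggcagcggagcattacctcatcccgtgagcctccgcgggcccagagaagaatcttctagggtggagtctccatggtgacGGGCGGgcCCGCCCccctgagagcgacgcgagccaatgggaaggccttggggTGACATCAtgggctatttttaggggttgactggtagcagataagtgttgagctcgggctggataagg
MYCN: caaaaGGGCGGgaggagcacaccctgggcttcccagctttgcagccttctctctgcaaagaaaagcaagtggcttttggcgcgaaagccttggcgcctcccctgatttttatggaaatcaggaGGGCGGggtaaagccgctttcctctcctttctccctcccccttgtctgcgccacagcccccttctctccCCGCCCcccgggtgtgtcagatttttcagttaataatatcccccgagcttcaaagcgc
EGR1: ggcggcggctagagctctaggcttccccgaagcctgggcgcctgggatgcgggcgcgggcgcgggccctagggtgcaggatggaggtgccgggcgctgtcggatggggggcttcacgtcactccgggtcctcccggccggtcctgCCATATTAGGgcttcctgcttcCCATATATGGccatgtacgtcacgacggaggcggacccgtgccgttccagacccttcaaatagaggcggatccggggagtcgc
IER2: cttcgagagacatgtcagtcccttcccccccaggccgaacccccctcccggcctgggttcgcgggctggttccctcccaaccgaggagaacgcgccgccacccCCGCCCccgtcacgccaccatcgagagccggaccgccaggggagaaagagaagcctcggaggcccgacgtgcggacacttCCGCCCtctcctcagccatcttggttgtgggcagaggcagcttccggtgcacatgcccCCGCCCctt
The motifs were the AP-1 site TGACTCA, the variant AP-1 site TGACATCA, the CRE TGACGTCA, the E-box CACGTG, the GC box GGGCGG, the EGR site GCGGGGGCG and the CArG box. They occurred in 4.2%, 2.37%, 1.65%, 6.34%, 42.6%, 4.72% and 1.16%, in that order, of the same 250 bases of all 35116 promoters in the RefSeq table. EGR1 held both of the CArG boxes found in these genes, at -105 to -96 and at -83 to -74 from the start. JUN held the variant AP-1 site at -67 to -60, with a GC box on each strand upstream of it. MYCN and IER2 held only GC boxes, 3 in each. Of the genes not shown, JUND held a CRE at -200 to -193. A match is a description of letters and not a site in use, and a missing match says only that these letters are not in this window.

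RNA was measured by sequencing and deposited as RPKM, reads relative to transcript length and depth, per RefSeq transcript. Those values still carried depth, so they were rescaled. The unit used below, scaled TPM, is per transcript length and is comparable between genes and libraries. Reads on the chosen transcripts, 1 per gene, were between 23521143 and 41209476 per library. Intervals in brackets are exact 95% intervals on reads, conditional binomial for ratios and Poisson for levels. They cover counting error only, not differences between cultures. For ratios they leave out the 0.5 scaled TPM that is added to each level before log2 is taken. They thus sit off centre around the ratios of low genes. TRIM28 itself was at 190 scaled TPM in knockdown cells and 400 in control cells with hemin, and at 317 and 421 without hemin. Its row was deposited as whole numbers, unlike nearly all others, so it is a weak check of the knockdown. Markers of other lineages moved too. The summed level of 12 erythroid markers was 75708 scaled TPM in knockdown cells and 59659 in control cells with hemin, against 19077 and 15953 without hemin. That of 8 mast cell and eosinophil markers was 1082 and 1984 with hemin, and 699 and 2604 without. For 8 myeloid markers it was 252 and 523 with hemin, and 263 and 531 without, and for 11 megakaryocyte markers 2088 and 1519 with hemin, and 2236 and 3014 without. These sums rest on a few abundant genes, such as the globins among the erythroid markers. Among the megakaryocyte markers ITGA2B was at 874 and 891 scaled TPM with hemin and 1107 and 1990 without. Of the mast cell and eosinophil markers FCER1A was at 1008 and 1067 with hemin and 660 and 1070 without. PRG2 was at 10.6 and 647 with hemin and 6.82 and 1345 without. In the additive fit for the knockdown, described below, 12.1% of all genes rose and 10.1% fell. There 5 of 10 megakaryocyte markers rose and 0 fell, and 2 of 11 erythroid markers rose and 1 fell. Of 6 myeloid markers 0 rose and 4 fell, and of 7 mast cell and eosinophil markers 0 rose and 6 fell. That fit takes cells with and without hemin together, whereas the megakaryocyte markers differed between them. Their median log2 ratio of knockdown over control was 1.41 with hemin and -0.22 without, beside 0.01 and 0.03 for all genes. The 5 called risen were THBS1 (5.30 with hemin and 3.94 without), ITGB3 (1.22 and 0.74), GP6 (1.64 and 0.21), GP1BA (1.59 and 0.23) and PF4 (2.20 and -0.62). No deposited value was 0 for any gene, so a marker at 0 could not have been seen. Of 10 myeloid markers listed 8 were measured, and MPO and ELANE were not. The part of these lineage shifts in the results below was not tested.

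MYC was the highest of the 9 genes in every library and FOS the lowest, with MAX, by its most abundant transcript, and JUND next below MYC. MAX and JUND could not be ordered in knockdown cells without hemin, at 191 scaled TPM (181 to 201) and 185 (179 to 191). MYC lay above 99.1% of all genes in control cells with hemin. In that library JUND and JUNB could not be ordered either, at 104.8 scaled TPM (101 to 108) and 104.6 (101 to 108). FOS did not reach the floor of 5 scaled TPM in any library and so entered no count. The other 8 genes reached it in at least 1 library.

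**Figure D1:**
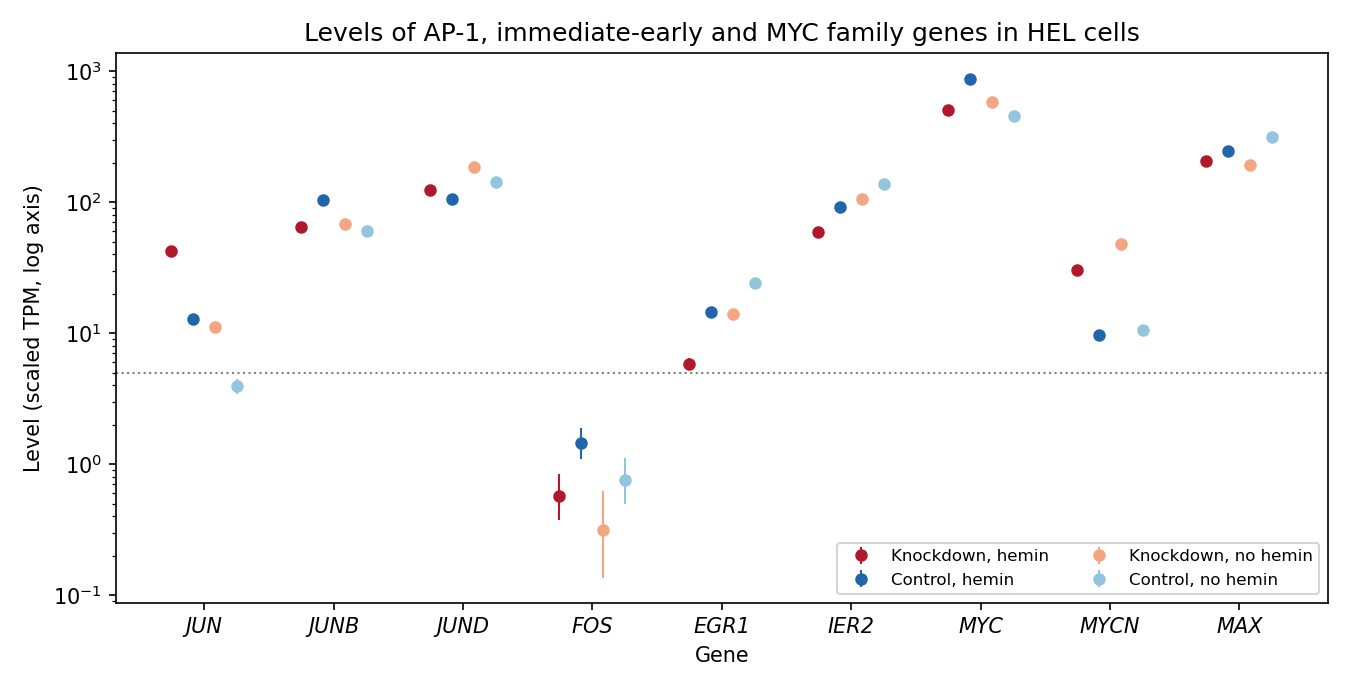
Levels of the 9 genes in scaled TPM on a log axis, with 1 point for each HEL library and bars for the exact 95% counting interval. The dotted line is the floor of 5 scaled TPM. JUN and MYCN are higher in the knockdown library of each pair and EGR1 is lower, while MYC is highest in control cells with hemin, at 878 scaled TPM.

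After KAP1 knockdown JUN and MYCN were higher and EGR1 was lower, in cells with and without hemin. Genes were counted from a 2-fold difference upwards, taken between log2 values after adding 0.5 scaled TPM, which understates differences of low genes. With hemin, 2 of the 8 genes (JUN and MYCN) were counted as higher and 1 (EGR1) as lower, where 6.00% of all 10893 genes were higher and 4.10% lower. Without hemin the same count was 2 higher (JUN and MYCN) and 0 lower, where 6.72% of 10869 genes were higher and 6.41% lower. There JUN was below the floor in control cells, at 3.93 scaled TPM, and entered only through the knockdown library. It could thus not have been counted as lower. An additive model with terms for knockdown and hemin, fitted with limma over 11149 genes, called JUN and MYCN risen and EGR1 fallen with the knockdown. The other 5 did not pass. In that fit 12.1% of all genes rose and 10.1% fell. It has 1 residual degree of freedom, the difference of the knockdown ratio between the states, and borrows its spread from all genes. Its standard errors (SE) thus measure no spread between cultures, and hardly a gene's own difference between the states. For MYC the SE was 0.21 with this pooling and 0.57 without, for JUNB 0.23 and 0.43, and for JUN, the other way, 0.27 and 0.14. A model without this pooling called 0 genes, with 1127 of 11149 at an unadjusted p under 0.05. With the deposited values as they stand JUN (limma adjusted p = 0.66), MYCN (limma adjusted p = 0.304) and EGR1 (limma adjusted p = 0.924) did not pass either.

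JUN (NM_002228), a strongly activating AP-1 subunit, was at 42.5 scaled TPM in knockdown cells and 12.8 in control cells with hemin, and at 11.2 and 3.93 without hemin. It was thus highest in knockdown cells with hemin and lowest in control cells without it, with the other two libraries close together. The log2 ratio of knockdown over control was 1.69 (1.61 to 1.84) with hemin and 1.40 (1.27 to 1.75) without. Of all genes at the floor, 98.8% and 97.7% had a lower ratio. In the additive fit JUN rose by 1.54 log2 units with the knockdown (SE 0.27, limma adjusted p = 4.36e-07). JUN was carried by 2977 and 780 reads with hemin and by 438 and 209 reads without.

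JUNB (NM_002229), which opposes JUN in some settings, went different ways in the 2 states. With hemin it was at 65.0 scaled TPM in knockdown cells and 104.6 in control cells, a log2 ratio of -0.68 (-0.76 to -0.61). Without hemin it was at 68.1 and 59.9, a ratio of 0.18 (0.08 to 0.29). That ratio became -0.39 with the deposited values taken as they stand, without depth scaling, where the median of all genes was -0.55. The control library with hemin was the one apart, and the other 3 lay between 59.9 and 68.1. JUND (NM_005354), usually made without stimulation, was at 124 scaled TPM in knockdown cells and 105 in control cells with hemin, and at 185 and 144 without. Its ratios were 0.25 (0.18 to 0.31) and 0.36 (0.30 to 0.42). The second became -0.22 with the values as they stand, beside the same -0.55 for all genes. Neither gene passed in the additive fit, where JUNB had -0.25 (limma adjusted p = 0.49) and JUND 0.30 (limma adjusted p = 0.36).

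FOS (NM_005252), the usual partner of the JUN proteins, rested on few reads. It had 26 reads in knockdown cells and 57 in control cells with hemin, and 8 and 26 without. These are 0.573 and 1.45 scaled TPM with hemin, and 0.316 and 0.755 without. Both knockdown libraries were the lower of their pair, at 0.395 and 0.418 of the control, with counting intervals on the log2 ratio of -2.07 to -0.65 and -2.61 to -0.07. JUN stood above FOS in each library.

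EGR1 (NM_001964), a zinc finger factor of the immediate-early response, was at 5.84 scaled TPM in knockdown cells and 14.5 in control cells with hemin, and at 14.1 and 24.3 without. It was lowest in knockdown cells with hemin and highest in control cells without it, the opposite ends to those of JUN. The log2 ratio was -1.24 (-1.49 to -1.14) with hemin and -0.76 (-0.94 to -0.64) without, and in the additive fit EGR1 fell by 1.00 (SE 0.27, limma adjusted p = 0.00178). IER2 (NM_004907), an immediate-early gene for a small nuclear protein, was likewise lowest in knockdown cells with hemin and highest in control cells without it. It was at 58.9 scaled TPM in knockdown cells and 91.1 in control cells with hemin, and at 106 and 137 without. Its ratios were -0.63 (-0.70 to -0.56) and -0.37 (-0.44 to -0.30), and it did not pass for the knockdown (-0.50, SE 0.23, limma adjusted p = 0.10).

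**Figure D2:**
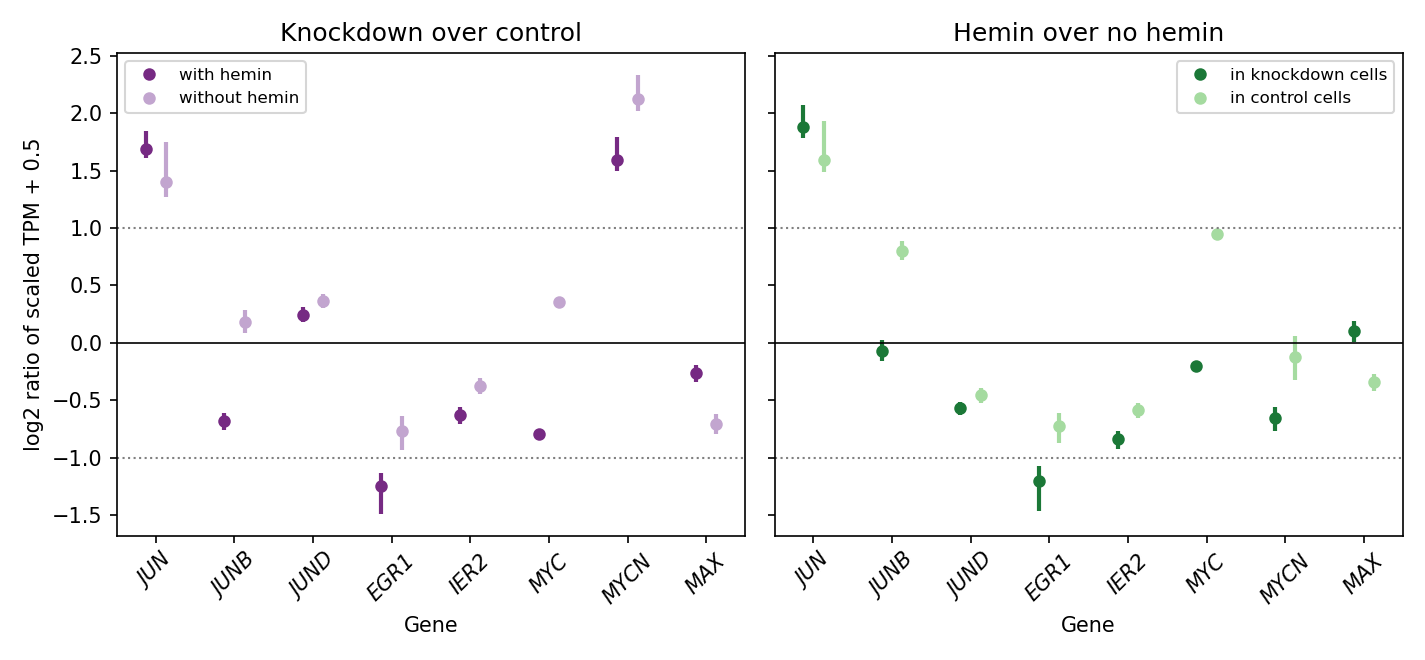
Log2 ratios of scaled TPM plus 0.5 for the 8 genes at the floor, knockdown over control on the left and hemin over no hemin on the right. Points are single comparisons of 2 libraries, bars are exact 95% counting intervals on reads without the added 0.5, and dotted lines mark 2-fold. JUN, MYCN and EGR1 keep their side in both states of the knockdown panel, whereas JUNB and MYC lie below 0 with hemin and above 0 without it.

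MYCN (NM_005378), the MYC relative best known from neural and progenitor cells, was at 30.3 scaled TPM in knockdown cells and 9.69 in control cells with hemin, and at 48.0 and 10.6 without. Both knockdown libraries were above both control libraries, which lay close together. The log2 ratios were 1.59 (1.49 to 1.80) and 2.13 (2.02 to 2.33), and MYCN rose by 1.86 in the additive fit (SE 0.25, limma adjusted p = 1.15e-11). MYC (NM_002467) was far more abundant and did not follow MYCN. With hemin it was at 506 scaled TPM in knockdown cells and 878 in control cells, a log2 ratio of -0.79 (-0.82 to -0.77). Without hemin it was at 583 and 456, a ratio of 0.35 (0.32 to 0.38). This turned to -0.23 with the values as they stand, where the median of all genes was -0.55. The additive fit, which takes both states together, gave MYC -0.22 (SE 0.21, limma adjusted p = 0.51). MYCN made up 5.64% of the summed MYC and MYCN level in knockdown cells and 1.09% in control cells with hemin, and 7.60% and 2.27% without.

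MAX (NM_145112), the shared partner, was at 205 scaled TPM in knockdown cells and 246 in control cells with hemin, and at 191 and 312 without. The log2 ratios were -0.26 (-0.34 to -0.19) and -0.71 (-0.80 to -0.62), and MAX did not pass in the additive fit (-0.49, SE 0.22, limma adjusted p = 0.098). MYC plus MYCN stood at 2.62 times the level of MAX in knockdown cells and 3.61 times in control cells with hemin, and at 3.31 and 1.50 times without. With MAX transcript NM_145116 in its place these were 5.15 and 6.81 times with hemin, and 3.65 and 2.94 times without, so the order of the 2 knockdown libraries depends on the transcript. Control cells without hemin had the lowest ratio with each of the 6 MAX transcripts. Control cells with hemin had the highest. With NM_145113, however, the 3.94 times there and the 3.92 times in knockdown cells without hemin were too close to order.

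The 6 MAX transcripts gave different values without hemin. NM_002382, NM_145112 and NM_145113 had log2 ratios of knockdown over control of -0.73 (-0.80 to -0.66), -0.71 (-0.80 to -0.62) and -0.78 (-0.83 to -0.73). NM_145114 had -0.12 (-0.33 to 0.08), NM_145116 0.12 (0.01 to 0.24) and NM_197957 0.12 (-0.12 to 0.35). With hemin the 6 transcripts ranged from -0.32 to -0.26. NM_145116 had 173 scaled TPM in knockdown cells and 159 in control cells without hemin, beside 191 and 312 for NM_145112 in the same libraries. The transcripts overlap, and whether the counting assigned shared reads to each of them is not stated in the labels. A MAX ratio without hemin therefore depends on the transcript, and summing all 6 gave -0.55.

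**Figure D3:**
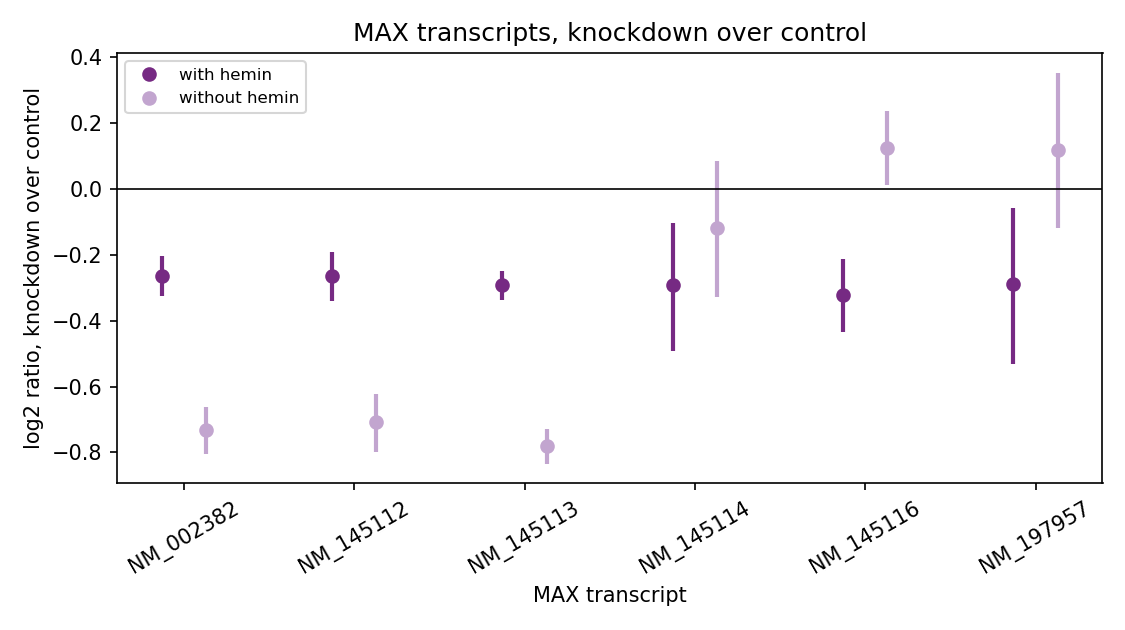
Log2 ratio of knockdown over control for the 6 MAX transcripts, with hemin and without, with exact 95% counting intervals. With hemin the transcripts lie together between -0.32 and -0.26. Without hemin 3 transcripts lie between -0.78 and -0.71 and the other 3 between -0.12 and 0.12.

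JUN was higher and EGR1 and IER2 were lower with hemin in knockdown and in control cells, except that IER2 in knockdown cells turned to 0.11 with the deposited values as they stand, where the median of all genes was 0.95. These comparisons use the same 4 libraries as those of the knockdown. In knockdown cells 1 of 8 genes was at least 2-fold higher with hemin (JUN) and 1 lower (EGR1), where 2.27% of 10816 genes were higher and 1.70% lower. In control cells 1 was higher (JUN) and 0 lower, where 2.59% of 10790 genes were higher and 2.59% lower. In that comparison JUN was below the floor without hemin and entered only through the library with hemin, so it could not have been counted as lower. JUN had log2 ratios of hemin over no hemin of 1.88 (1.78 to 2.07) in knockdown cells and 1.59 (1.49 to 1.94) in control cells. In the additive fit it rose by 1.74 with hemin (SE 0.27, limma adjusted p = 3.39e-08), where 3.01% of genes rose and 2.96% fell. EGR1 had -1.20 (-1.46 to -1.08) and -0.72 (-0.87 to -0.61), and IER2 -0.84 (-0.92 to -0.76) and -0.58 (-0.65 to -0.52). Both fell in that fit, EGR1 by 0.96 (SE 0.27, limma adjusted p = 0.0113) and IER2 by 0.71 (SE 0.23, limma adjusted p = 0.0382). All 3 calls were lost with the deposited values as they stand, where the limma adjusted p was 0.121 for JUN, 0.746 for EGR1 and 0.883 for IER2, and without pooling, where it was 0.68, 0.696 and 0.685. The EGR1 call was also lost with a floor of 20 (limma adjusted p = 0.101) and with no floor (limma adjusted p = 0.09). The IER2 call was also lost with no floor (limma adjusted p = 0.0799), plain library totals (limma adjusted p = 0.0791) and equal medians (limma adjusted p = 0.0548). JUND had -0.57 (-0.63 to -0.51), or 0.38 with the values as they stand, and -0.45 (-0.52 to -0.39), and did not pass (limma adjusted p = 0.17).

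MYC and JUNB were higher with hemin in control cells, at 0.94 (0.92 to 0.97) and 0.80 (0.72 to 0.89), both below the 2-fold limit. In knockdown cells they had -0.20 (-0.23 to -0.17) and -0.07 (-0.16 to 0.03), which became 0.75 and 0.88 with the deposited values unscaled, where the median of all genes was 0.95. MYCN had -0.66 (-0.77 to -0.56) in knockdown cells and -0.12 (-0.32 to 0.06) in control cells. These became 0.29 and 0.03 with the values as they stand, where the medians of all genes were 0.95 and 0.15. MAX had 0.10 (0.01 to 0.19) and -0.34 (-0.42 to -0.27). The MAX value in knockdown cells turned to -0.09 with its transcripts summed and differed between them, since NM_145114 had -0.45 (-0.67 to -0.25), NM_145116 -0.73 (-0.85 to -0.61) and NM_197957 -0.75 (upper bound -0.51). In control cells the 6 transcripts lay between -0.35 and -0.28. None of these 4 genes passed for hemin in the additive fit. RNAs without a poly-A tail also differed with hemin. The summed level of the 5 measured was 1792 scaled TPM in knockdown cells and 1143 in control cells with hemin, against 325 and 471 without. Most of it was RN7SL1, at 1599 and 1090 with hemin and 285 and 438 without. Of those at the floor, 4 of 4 lay above 0 for hemin in knockdown cells and 3 of 3 in control cells, where RMRP had only 0.04. TERC, below the floor, was at 1.90 scaled TPM with hemin and 3.40 without in knockdown cells, and at 2.07 and 0.834 in control cells. Their part in the hemin results was not tested.

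The make-up of the JUN family differed more than its sum. The summed level of JUN, JUNB and JUND was 232 scaled TPM in knockdown cells and 222 in control cells with hemin, and 264 and 208 without. The share of JUN was 18.3% in knockdown cells and 5.77% in control cells with hemin, and 4.23% and 1.89% without. JUNB held 28.0% and 47.1% with hemin, and 25.8% and 28.9% without. JUND held 53.7% and 47.2% with hemin, and 70.0% and 69.3% without.

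**Figure D4:**
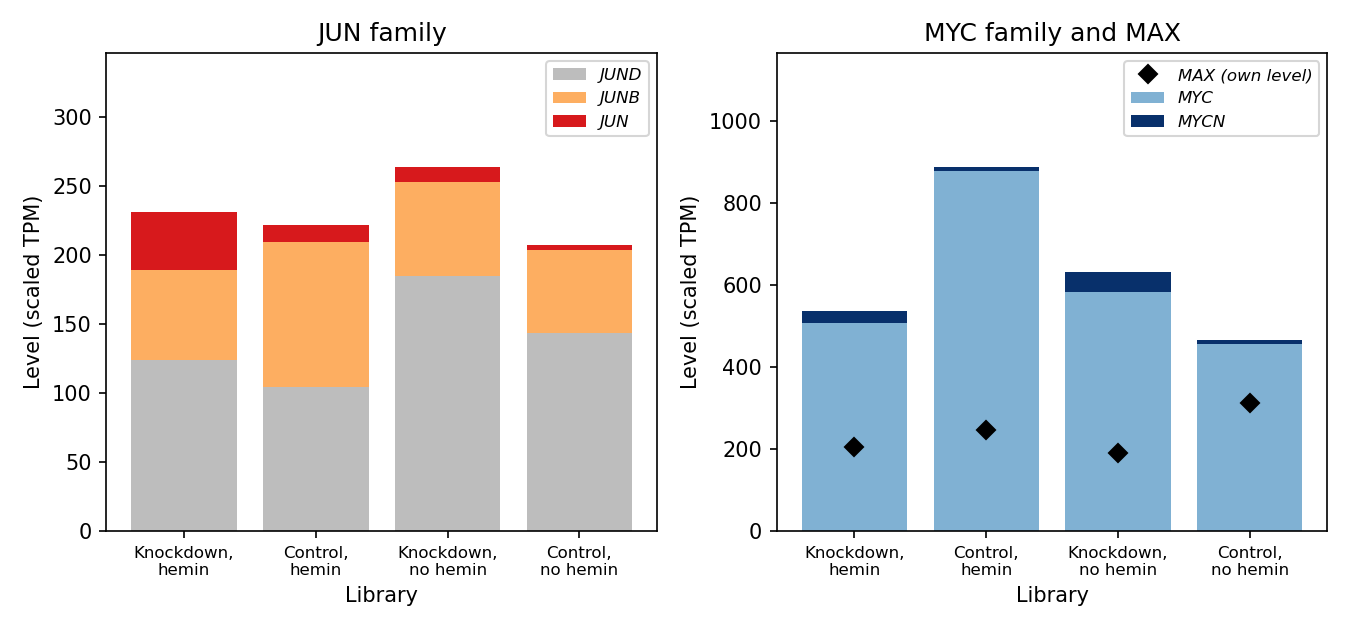
Summed levels in scaled TPM of JUND, JUNB and JUN (left) and of MYC and MYCN (right), with MAX as diamonds, in the 4 HEL libraries. The JUN share is largest in knockdown cells with hemin, at 18.3%. The MYC family sum is largest in control cells with hemin, at 888 scaled TPM, and lowest in control cells without it, at 467.

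Genes with the most similar pattern over the 4 libraries were found by the distance between log2 values centred on their mean, for members spanning at least 1 log2 unit. JUN, which spanned 3.28, was nearest to the alpha globin genes HBA2 (distance 0.36) and HBA1 (0.36) and to RPPH1 (0.59), the RNA of ribonuclease P. EGR1, spanning 1.97, was nearest to NFATC1 (0.03), IGFBP4 (0.17) and JDP2 (0.19). NFATC1 was at 2.99 scaled TPM in knockdown cells and 7.93 in control cells with hemin, and at 7.76 and 13.2 without. IER2, spanning 1.21, was nearest to LRRC56 (0.08), SIPA1 (0.08) and CHST12 (0.10), and MYCN, spanning 2.25, to HSD17B10 (0.10), GALNT14 (0.20) and AP000251.2 (0.22). With 4 libraries a close match is a description of these libraries only. JUNB, JUND, MYC and MAX spanned less than 1.

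Among the other AP-1 and related leucine zipper genes, more were lower than higher after knockdown. Of the 15 at the floor 2 passed the 2-fold limit upwards and 5 downwards with hemin, and 1 and 3 did so without. Among all genes 6.00% passed it upwards and 4.10% downwards with hemin, and 6.72% and 6.41% without. The medians of the 15 were -0.33 with hemin and -0.34 without, beside 0.01 and 0.03 for all genes. In the additive fit 1 of 15 rose, 5 fell and 9 did not pass, where 12.1% of all genes rose and 10.1% fell. ATF3, a stress-induced factor that can pair with JUN, was at 3.95 scaled TPM in knockdown cells and 11.8 in control cells with hemin, and at 2.94 and 16.4 without (-1.88, SE 0.32, limma adjusted p = 1.54e-07). CREB5 (-2.15, limma adjusted p = 4.42e-07) and JDP2 (-0.93, limma adjusted p = 0.00178), a repressor of AP-1, also fell. BATF, a JUN partner known from lymphocytes, was at 22.1 scaled TPM in knockdown cells and 6.22 in control cells with hemin, and at 28.1 and 6.91 without, and rose by 1.85 (limma adjusted p = 5.08e-10). With hemin 1 of the 15 rose and 1 fell, where 3.01% of all genes rose and 2.96% fell. MAFG, a small MAF gene, rose by 0.82 (limma adjusted p = 0.0118) and JDP2 fell by 0.79 (limma adjusted p = 0.0312), while BATF2 had 0.78 (limma adjusted p = 0.22) and BATF3 -0.68 (limma adjusted p = 0.16).

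The other immediate-early and growth-response genes had medians of -0.42 with hemin and -0.26 without after knockdown, beside 0.01 and 0.03 for all genes. At least 2-fold higher were 1 of 16 with hemin and 0 of 18 without, and 3 were lower in each. Among all genes 6.00% were higher and 4.10% lower with hemin, and 6.72% and 6.41% without. In the additive fit 3 of 18 rose, near the 12.1% of all genes, 5 fell, where 10.1% of all genes did, and 10 did not pass. PHLDA1, a growth factor-induced gene, was at 3.76 scaled TPM in knockdown cells and 24.2 in control cells with hemin, and at 3.31 and 66.3 without (-3.33, SE 0.27, limma adjusted p = 1.87e-31). DUSP6, a phosphatase induced by and acting on ERK, fell by 1.22 (limma adjusted p = 1.09e-05). RHOB, a small GTPase gene, fell by 1.09 (limma adjusted p = 0.000855) and BTG2, an antiproliferative gene, by 0.92 (limma adjusted p = 0.000683). With hemin 1 of the 18 rose and 2 fell, where 3.01% of all genes rose and 2.96% fell. TRIB1, a pseudokinase gene, was at 22.1 scaled TPM with hemin and 59.6 without in knockdown cells, and at 8.95 and 53.7 in control cells (-1.97, limma adjusted p = 1.93e-13). ZFP36, which encodes a protein that destabilises mRNA, rose by 0.90 with hemin (limma adjusted p = 0.0103).

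Of 20 upstream kinase and transcription factor genes, 0 passed the 2-fold limit upwards and 1 downwards with hemin after knockdown. Without hemin 1 and 0 did so. Of all genes 6.00% were higher and 4.10% lower with hemin, and 6.72% and 6.41% without. In the additive fit 1 of the 20 rose, where 12.1% of all genes did, and 2 fell, near the 10.1% of all genes. SRF rose with the knockdown (0.71, limma adjusted p = 0.0152) and was at 62.8 scaled TPM in knockdown cells and 48.9 in control cells with hemin, and at 83.8 and 39.9 without. ELK3, an SRF cofactor, fell by 0.84 (limma adjusted p = 0.025), MAPK8, the JNK1 gene, fell by 0.67 (limma adjusted p = 0.034), and the other 17 did not pass. For hemin all 20 did not pass, where 3.01% of all genes rose and 2.96% fell. Among 10 corepressors and ubiquitin ligases and other regulators of these proteins, KIAA1524, whose product stabilises MYC protein, rose with the knockdown by 1.12 (limma adjusted p = 0.000148). NAB2, a corepressor of EGR1, fell by 0.64 (limma adjusted p = 0.04), and the other 8 did not pass. The 1 rise and 1 fall among these 10 are near the 12.1% and 10.1% of all genes.

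In the MAX network 2 of 14 genes rose with the knockdown, near the 12.1% of all genes, 3 fell, where 10.1% of all genes did, and 9 did not pass. MXI1, a MAX partner that opposes MYC, was at 6.91 scaled TPM in knockdown cells and 14.0 in control cells with hemin, and at 4.32 and 8.32 without (-0.92, limma adjusted p = 0.0169). MXD1, another such partner, fell with the knockdown (-0.68, limma adjusted p = 0.0337) and rose with hemin (0.82, limma adjusted p = 0.0269). MYCBP, which encodes a MYC-binding protein, rose by 0.97 with the knockdown (limma adjusted p = 0.0156) and RUVBL2, a chromatin helicase gene, by 0.74 (limma adjusted p = 0.00674).

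Textbook MYC-activated genes were mostly above 0 after knockdown in both states, although MYC itself was higher in 1 state and lower in the other. Of 33 at the floor 27 lay above 0 with hemin (median 0.34) and 28 without (median 0.30), and the second median became -0.28 with the deposited values as they stand, where that of all genes was -0.55. In the additive fit 7 of 33 rose, 0 fell and 26 did not pass, where 12.1% of all genes rose and 10.1% fell. LDHA, lactate dehydrogenase A, was at 295 scaled TPM in knockdown cells and 106 in control cells with hemin, and at 444 and 180 without (1.39, SE 0.22, limma adjusted p = 2.31e-08). SHMT1, an enzyme of folate metabolism, rose by 1.46 (limma adjusted p = 9.43e-07), HSPE1, a mitochondrial chaperone gene, by 1.20 (limma adjusted p = 2.55e-06) and NME1, a nucleoside diphosphate kinase gene, by 1.03 (limma adjusted p = 4.14e-05). With hemin 27 of 33 lay below 0 in knockdown cells (median -0.36) and 31 of 33 in control cells (median -0.32), beside medians of 0.002 and -0.006 for all genes. With the values as they stand these list medians became 0.59 and -0.16, where those of all genes were 0.95 and 0.15. In the additive fit for hemin 0 rose, 3 fell and 30 did not pass, where 3.01% of all genes rose and 2.96% fell. NME1 fell by 0.76 (limma adjusted p = 0.0141). Of the textbook MYC-repressed genes 3 reached the floor without hemin and 4 with it. CDKN1A, a cell cycle inhibitor gene, rose by 1.39 with hemin (limma adjusted p = 0.00122), and DDIT3, a stress factor gene, fell by 1.04 with the knockdown (limma adjusted p = 0.00303).

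Of 16 textbook AP-1 targets 6 reached the floor. TIMP1, a protease inhibitor gene, was at 271 scaled TPM in knockdown cells and 308 in control cells with hemin, and at 234 and 516 without, and fell with the knockdown (-0.66, limma adjusted p = 0.015). CCND1, cyclin D1, was at 8.21 scaled TPM with hemin and 30.1 without in knockdown cells, and at 9.86 and 31.7 in control cells, and fell with hemin (-1.73, limma adjusted p = 4.71e-09). The other 5 in each case did not pass. Thus 1 of 6 fell for each term, where 10.1% of all genes fell with the knockdown and 2.96% with hemin. With so few genes, the knockdown count is near that of all genes.

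**Figure D5:**
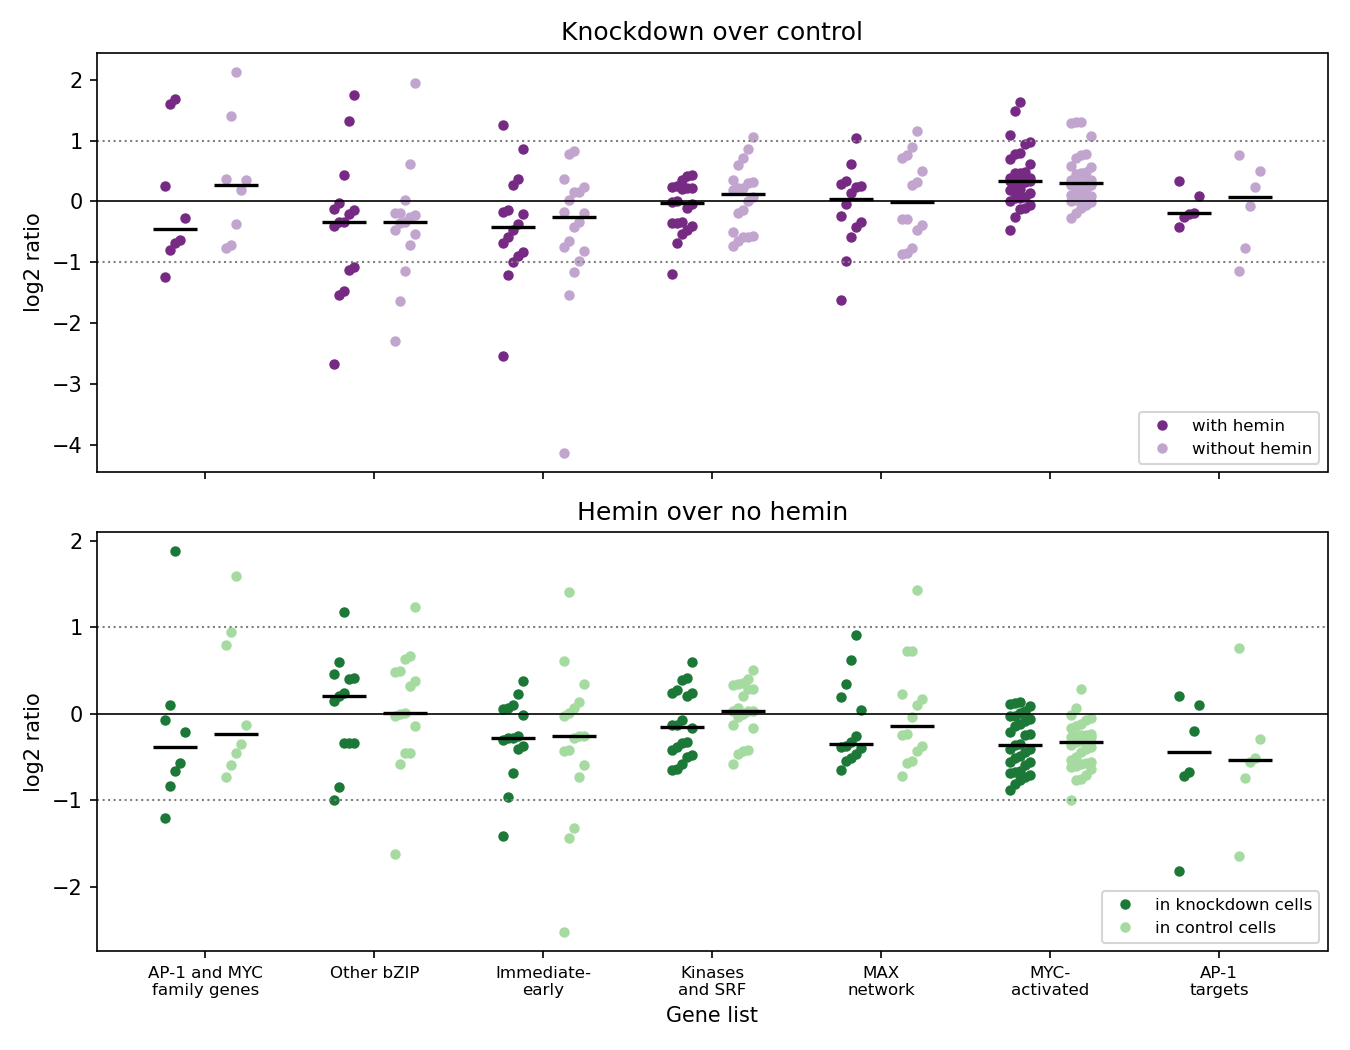
Log2 ratios of the genes at the floor in 7 lists, knockdown over control above and hemin over no hemin below. Points are genes, black bars are list medians and dotted lines mark 2-fold. The MYC-activated genes lie mostly above 0 in the upper panel, with medians of 0.34 and 0.30, and mostly below 0 in the lower one, with medians of -0.36 and -0.32.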

How the data were processed

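The authors deposited RPKM values, 1 row per RefSeq transcript with its symbol, per the file headers. The submitters' processing notes list Bowtie and hg19 without saying how each was used, and libraries were made with the TruSeq RNA kit, per the labels' protocols. Within a row the values divided by a factor per column were whole multiples of a single step, which gave whole reads for all 24533 rows without whole numbers, within 0.0002 reads plus 4e-09 relative. Reads with a common factor are recovered divided by it. The other 5 rows of whole numbers hold no member. Each gene was represented by the transcript with the highest mean. Values were divided by reads times a trimmed-mean factor (trims 0.3 and 0.05) and set to a mean sum of 1000000, called scaled TPM. Genes entered a comparison at 5 scaled TPM in the higher library. No deposited value was 0.

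Ratios are log2 of scaled TPM plus 0.5. The additive fit used limma 3.58.1 in R 4.3.3 with a trend and Benjamini-Hochberg adjustment at 0.05 over all genes at the floor in any library. The fits were run on simulated data with known knockdown changes. These held no hemin effect and no difference of the knockdown between states, so they do not check the spread in the real data. Members, lists and tests were chosen with earlier results of these data known. Named were all 9 members, up to 4 genes per list with the largest mean ratio in size, and the 3 nearest patterns per member. A few lineage markers and TERC were named besides these. The mouse KAP1 peaks were not used here, since no annotation of their build was at hand. The design assumed RPKM scaled to depth, which these were not.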

Additional observations from a re-analysis of the deposited data

Results flagged for a closer look

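JUNB, MYC and MAX had opposite signs for the same contrast in the 2 states, with both counting intervals clear of 0, and the difference itself was not tested, since each state has 1 library per group. For the knockdown, the log2 ratio with hemin minus that without was -0.87 for JUNB and -1.15 for MYC, where 96.2% of all genes at the floor had a smaller difference in size than MYC and 90.1% a smaller one than JUNB. The same 4 values give the difference of the hemin ratio in knockdown cells minus that in control cells, which was -1.15 for MYC and 0.44 for MAX. For MAX 61.9% of genes had a smaller difference in size, and the median size over all genes was 0.34. The MAX value rests on the transcript chosen. Its hemin ratio in knockdown cells was barely clear of 0, at 0.10 (0.01 to 0.19), and was 0.07 with equal medians.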

How the results depend on the processing

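No paired analysis was possible because each group was 1 library and the labels carry no replicate numbers, so no library could be left out either. The counts of members kept their values with pseudocounts of 0.1 and 1 and with transcripts summed, where the MAX ratio with hemin in knockdown cells turned to -0.09. With plain library totals the all-gene median was 0.14 without hemin and 0.11 with hemin in the knockdown comparisons. They left 1 member falling with hemin in the additive fit instead of 2, as did equal medians and a floor of 20, and with no floor 0 fell. A floor of 20 also gave 1 member in place of 2 at least 2-fold higher after knockdown without hemin, 0 in place of 1 lower with hemin, 0 in place of 1 lower with hemin in knockdown cells and 0 in place of 1 higher in control cells, since JUN or EGR1 then misses the floor in those comparisons. Without pooling the fit called 0 rising and 0 falling for the knockdown and 0 and 0 for hemin. The deposited values as they stand, which carry depth, gave 1 member higher and 2 lower after knockdown without hemin, 2 higher and 0 lower with hemin in knockdown cells, 2 higher with hemin in control cells, and 0 rising and 0 falling for either term of the fit. With these values the ratios of JUNB, JUND and MYC after knockdown without hemin, those of JUNB, JUND, IER2, MYC and MYCN with hemin in knockdown cells, and that of MYCN with hemin in control cells changed sign. The medians of all genes in these comparisons were then -0.55, 0.95 and 0.15, in the same order. The genes at least 2-fold higher and lower over the table numbered 730 and 697 after knockdown without hemin, and 959 and 517 with plain totals or 145 and 2442 with the values as they stand. With hemin they numbered 654 and 447, and 822 and 362 with plain totals or 1105 and 297 as they stand. For hemin they numbered 245 and 184 in knockdown cells and 279 and 279 in control cells, and 5030 and 11 and 453 and 194 as they stand. Depth limits FOS, with 8 to 57 reads. With no floor FOS entered the fit and did not pass for the knockdown (-0.74, limma adjusted p = 0.0653) or hemin (0.52, limma adjusted p = 0.35).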
